A study of Mus musculus with 2 samples.

Results

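The genes described here are 31 genes of cholesterol synthesis, its control, sterol uptake and sterol transport, chosen by their roles in the pathway, with earlier results of these data known, and found in the deposited table by gene symbol. Of the 31, 25 had a named probe set, out of 15644 named genes in all, and 22 reached the measurement floor explained below. The other 6, Acat2, Hmgcs1, Idi1, Fdps, Insig1 and Soat2, are not analysed here. The study used primary hepatocytes, liver parenchymal cells taken from the organ and kept in culture. Over 12 h, cells were given either pregnenolone 16α-carbonitrile (PCN) at 10 µmol/l or only the solvent dimethyl sulfoxide (DMSO). For both groups the cells are described as from a male C57BL/6 mouse of 9 weeks, in culture for 24 h when treatment began. The groups thus share strain, sex, age and time in culture, and whether they share a donor animal is not known here. PCN, a synthetic steroid, is the standard rodent agonist of the pregnane X receptor (PXR), the nuclear receptor through which liver cells sense drugs and steroids. Each group was measured on 1 Affymetrix array made from the pooled RNA of 3 samples. There were no replicates, so the spread between cultures is unknown, and "higher" and "lower" compare 2 arrays and not 2 populations.

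Hepatocytes make cholesterol from acetyl-CoA through mevalonate, isoprenoid diphosphates, squalene and lanosterol, and they also take it up from lipoproteins, store it as esters, secrete it into bile and pass it to plasma lipoproteins. The transcription factor SREBP2, encoded by Srebf2, switches on most enzymes of the pathway when sterols run low. Its precursor is carried from the endoplasmic reticulum to the Golgi by the escort protein SCAP, and the INSIG proteins hold that complex back when sterols are plentiful. Oxysterols, oxidised forms of cholesterol, activate the liver X receptors (LXR), which switch on export pumps.

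The values are GCRMA intensities, background-corrected and normalized array signals on a linear scale, and differences are given on the log2 scale as PCN minus DMSO. A gene counted as measured when it reached an intensity of 32 (5 on the log2 scale) in at least 1 array, which 6449 genes did. Over these genes the median log2 difference was 0.03, with quartiles of -0.09 and 0.14. The 38 bacterial and phage control probe sets, added from outside, spanned -0.33 to 0.16 with an SD of 0.10, a spread that holds no difference between cultures. The 4 control probe sets for mouse pyruvate carboxylase, all reading 1 mRNA, gave differences from -0.69 to -0.27, whereas the 3 for beta-actin lay between 0.04 and 0.05. The labelled cell type fitted its markers: 7 of 8 hepatocyte markers were measured, and Alb stood at 21383 with PCN and 21685 with DMSO. The enzyme gene Tat, the exception, had 14.9 with PCN and 23.9 with DMSO. Markers of other liver cells were mostly under the floor, with 2 of 9 stellate cell, 1 of 8 Kupffer cell, 2 of 8 endothelial and 2 of 5 bile duct markers measured. Summed over each list, the intensity was 401 with PCN and 447 with DMSO for stellate cells, and 1698 with PCN and 1754 with DMSO for Kupffer cells. It was 149 with PCN and 136 with DMSO for endothelial cells, and 333 with PCN and 310.0 with DMSO for bile duct cells. The endothelial and bile duct sums join opposite directions. Among bile duct markers, Krt19 had 223 with PCN and 169 with DMSO, and Sox9 95.2 with PCN and 127 with DMSO. Among endothelial markers, Lyve1 had 39.8 with PCN and 30.4 with DMSO, and Stab2 37.0 with PCN and 42.1 with DMSO. Most of the Kupffer cell sum came from Cd68, with 1626 with PCN and 1690 with DMSO. The part of these other cell types in the differences below was not tested. In bulk RNA fewer cells of a type and less RNA per cell cannot be told apart. Of the receptor's known targets, Cyp3a11 had 15919 with PCN and 8519 with DMSO, and Cyp3a25 had 1134 with PCN and 145 with DMSO.

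Most cholesterol genes were a little lower in the PCN array. Of the 22 measured genes, 17 (77.3%) were lower and 5 higher, against 42.4% lower over all measured genes, and their median log2 difference was -0.12. The lower genes included all 11 measured synthesis enzymes among the 31 genes, with a median of -0.22. This count of enzymes was added after the data were seen, from genes chosen with earlier results of these data known. Synthesis enzymes outside the 31 did not all share this direction: Msmo1 stood at 0.06 and Lbr at 0.17, and both are described further on. The size was small for every gene but one. Osbpl3, an oxysterol-binding protein, was the only one of the 22 past 1.5-fold, where 1.94% of all measured genes lay, and also the only one past 2-fold, where 0.326% lay. At 1.2-fold, 6 of the 22 (27.3%) were lower, against 8.95% of all measured genes, and none was higher, against 9.06%. Below the whole range of the control probe sets lay 4 of the 22, namely Osbpl3, Dhcr7, Lss and Pmvk (18.2%, against 5.61% of all measured genes). Above it lay 2, Insig2 and Npc1 (9.09%, against 21.7%). None of the 22 was under the floor in either array, so none of these differences is a bound.

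**Figure D1:**
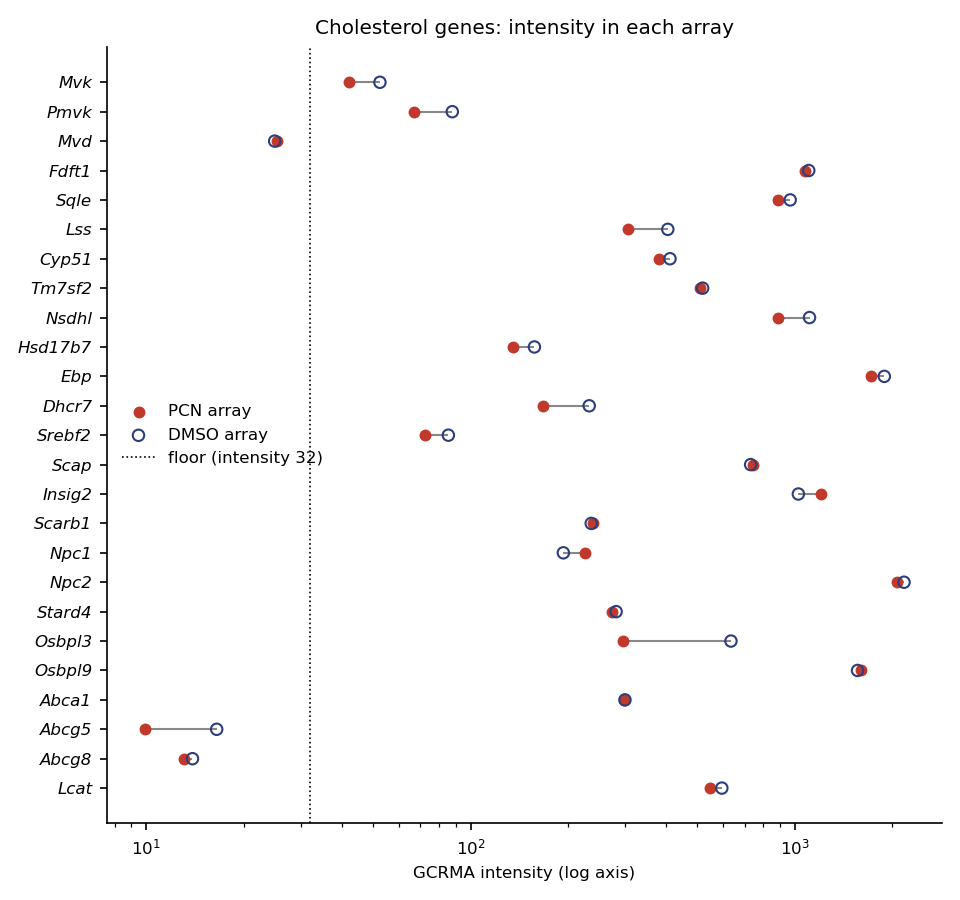
GCRMA intensity (log axis) of the 25 cholesterol genes with a named probe set in the PCN array (filled red) and the DMSO array (open blue), in pathway order, with the floor of 32 dotted. The gap is widest for Osbpl3, with 294 in the PCN array and 635 in the DMSO array, and Mvd, Abcg5 and Abcg8 lie under the floor in both arrays.

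Promoter windows of some of the genes that differed are shown to let their elements be seen beside the values. SREBPs bind DNA weakly on their own and work with NF-Y, which binds CCAAT boxes, or with Sp1, which binds GC boxes. RefSeq windows of 300 bases (250 before and 50 after a transcript start, build GRCm38.p6) were at hand for 24 of the 31 genes, 18 with 1 window and 6 with several. The windows below belong to Osbpl3 (chr6:50456121-50456420, minus strand), Lss (chr10:76531355-76531654, plus strand), Nsdhl (chrX:72918271-72918570, plus strand) and Mvk (chr5:114444019-114444318, plus strand). These are the genes lower by 1.2-fold or more that have 1 window, and the first Insig2 window (chr1:121332540-121332839, minus strand) is added as that of the measured gene with the highest difference. Dhcr7 and Pmvk, also lower by 1.2-fold or more, have several windows and are not printed. Pmvk window 1 has 1 CCAAT box and 0 GC boxes, and its window 2 has neither. Dhcr7 window 1 has only 1 GC box, window 2 has neither, and window 3 has 2 CCAAT boxes and 3 GC boxes. Capitals mark CCAAT boxes (CCAAT or its reverse complement ATTGG) and GC boxes (GGGCGG or its reverse complement CCGCCC).
Osbpl3: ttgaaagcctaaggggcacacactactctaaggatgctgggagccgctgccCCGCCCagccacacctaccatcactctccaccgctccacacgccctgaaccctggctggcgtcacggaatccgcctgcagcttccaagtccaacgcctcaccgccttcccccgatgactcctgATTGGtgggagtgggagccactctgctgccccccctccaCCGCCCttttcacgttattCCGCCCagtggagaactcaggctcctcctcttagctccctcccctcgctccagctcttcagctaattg
Lss: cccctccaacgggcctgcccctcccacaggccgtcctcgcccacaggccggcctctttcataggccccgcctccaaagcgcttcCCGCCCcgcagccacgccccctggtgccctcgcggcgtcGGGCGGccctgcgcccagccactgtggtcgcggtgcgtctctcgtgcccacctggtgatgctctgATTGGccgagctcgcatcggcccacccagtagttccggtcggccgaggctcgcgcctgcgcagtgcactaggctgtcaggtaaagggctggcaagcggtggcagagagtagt
Nsdhl: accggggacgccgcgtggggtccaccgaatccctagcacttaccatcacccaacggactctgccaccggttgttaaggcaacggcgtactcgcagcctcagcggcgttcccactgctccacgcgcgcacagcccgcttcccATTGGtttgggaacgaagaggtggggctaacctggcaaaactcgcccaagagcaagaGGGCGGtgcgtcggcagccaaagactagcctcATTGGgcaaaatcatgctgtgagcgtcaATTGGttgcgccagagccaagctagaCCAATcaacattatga
Mvk: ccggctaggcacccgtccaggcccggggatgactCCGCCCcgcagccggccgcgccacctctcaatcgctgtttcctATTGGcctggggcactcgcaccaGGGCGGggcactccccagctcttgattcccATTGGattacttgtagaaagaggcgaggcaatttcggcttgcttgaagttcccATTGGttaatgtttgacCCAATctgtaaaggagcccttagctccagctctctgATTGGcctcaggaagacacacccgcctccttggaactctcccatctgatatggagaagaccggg
Insig2: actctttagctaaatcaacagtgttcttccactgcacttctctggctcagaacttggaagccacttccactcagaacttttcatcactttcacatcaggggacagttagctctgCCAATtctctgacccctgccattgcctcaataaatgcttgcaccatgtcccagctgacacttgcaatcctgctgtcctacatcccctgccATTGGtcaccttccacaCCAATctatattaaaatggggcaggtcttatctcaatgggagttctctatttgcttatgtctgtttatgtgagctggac

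Counted on both strands, CCAAT stood in a window of 21 of the 24 genes (87.5%), against 42.9% of 5322 measured genes with a window and 41.1% of all 27025 genes in the RefSeq table. The 24 are not all measured genes, since they include Acat2, Hmgcs1, Idi1, Insig1, Mvd, Abcg5 and Abcg8. GGGCGG stood in 20 of the 24 (83.3%), against 70.9% of the measured genes and 38.2% of all genes. Of the 13 synthesis enzymes with a window, 12 had a CCAAT box and 12 a GC box. These 13 include Acat2, Hmgcs1, Idi1 and Mvd, for which no difference is given, and lack the measured Fdft1 and Sqle. CCAAT boxes were found also in the windows of Tm7sf2 (log2 difference -0.02) and Cyp51 (-0.11). The first Insig2 window has 3 of them and no GC box. A link between the boxes and the differences was not tested. The other Insig2 windows, 2 in number, each have 1 GC box and no CCAAT box. A sterol regulatory element written as TCACNCCAC was present in 1.47% of the measured genes and in 1 of the 24, Hmgcs1, which is not analysed here. Matches of different motifs overlapped 0 times in these windows. A match describes letters and shows no binding, and a window without one lacks only these letters.

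**Figure D2:**
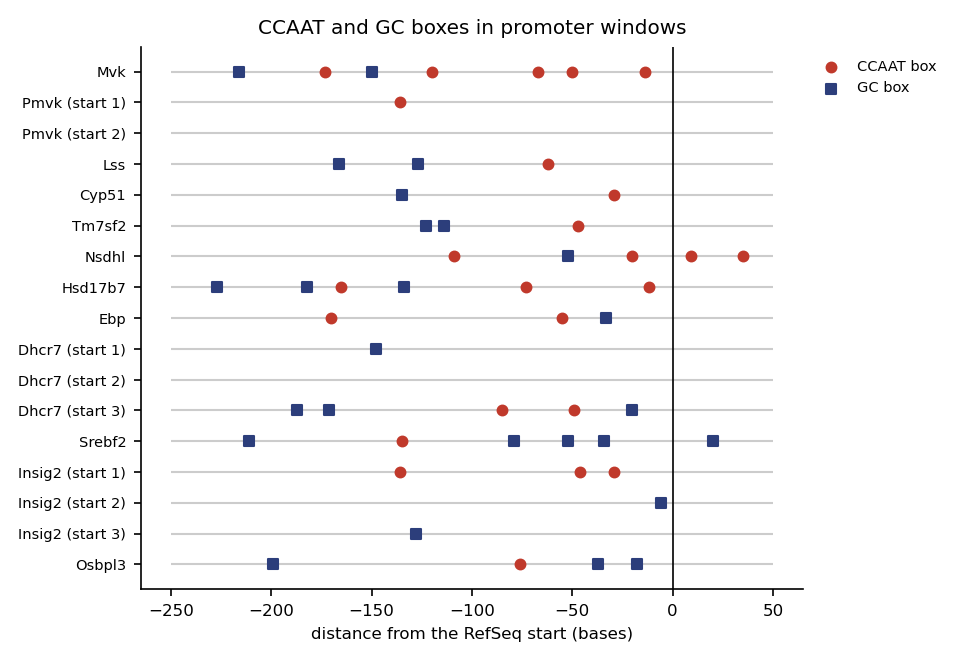
CCAAT boxes (red circles) and GC boxes (blue squares) in the RefSeq promoter windows of the measured synthesis enzymes that have a window, Srebf2, Insig2 and Osbpl3, by distance in bases from each transcript start. Mvk has 5 CCAAT boxes and Lss 1, and genes with several starts have a line for each.

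Among enzymes of the mevalonate segment, Pmvk and Mvk were lower. Mvk, mevalonate kinase, which adds the first phosphate to mevalonate, had an intensity of 42.2 with PCN and 52.5 with DMSO, a log2 difference of -0.32. Pmvk, phosphomevalonate kinase, which adds the next phosphate, had 66.7 with PCN and 87.8 with DMSO, a difference of -0.40. Both genes lie not far above the floor, Pmvk below the range of the control probe sets and Mvk inside it. Mvd, the decarboxylase that follows, was under the floor, with 25.3 in the PCN array and 24.9 in the DMSO array, so no difference is given for it.

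From squalene to cholesterol, all 9 listed enzymes were measured and all 9 were lower with PCN, by -0.48 to -0.02 on the log2 scale. Dhcr7, the reductase of the last step, stood furthest down, with 167 in the PCN array and 232 in the DMSO array. It was 1.39-fold lower, and 2.34% of all measured genes had a difference as low or lower. Lss, which folds epoxidised squalene into lanosterol, had 307 with PCN and 406 with DMSO, 1.32-fold lower, and 3.83% of measured genes were as low. These 2 enzymes and Pmvk are the ones below the range of the control probe sets.

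Nsdhl and Hsd17b7, the dehydrogenase and the ketoreductase that help to remove methyl groups from the sterol ring, came next. Nsdhl had 886 with PCN and 1110.4 with DMSO, a log2 difference of -0.33. Hsd17b7 had 135 with PCN and 157 with DMSO, a difference of -0.22. The difference of Nsdhl lies at the lower edge of the control range, with 5.95% of measured genes as low, and that of Hsd17b7 well inside it, with 11.7%.

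The other 5 enzymes differed by less than 1.1-fold. Ebp, the isomerase that moves a double bond of the sterol ring, had 1721 with PCN and 1888 with DMSO (log2 difference -0.13). Sqle, squalene epoxidase, an oxygen-using control point of the pathway, had 887 with PCN and 968 with DMSO (log2 difference -0.13). Cyp51, the P450 that demethylates lanosterol, had 382 with PCN and 412 with DMSO (log2 difference -0.11). Fdft1, squalene synthase, had 1077 with PCN and 1104 with DMSO, and Tm7sf2, a sterol reductase, had 511 with PCN and 519.8 with DMSO. The last 2 differed by -0.04 and -0.02, sizes that lie well within the spread of the control probe sets. The differences were uneven along the pathway, and the neighbouring steps Sqle and Lss stood at -0.13 and -0.40. Sc5d, the desaturase that acts between Ebp and Dhcr7 and is not among the 31 genes, was picked out after its value was seen and had 1441 with PCN and 1480.3 with DMSO, a difference of -0.04.

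**Figure D3:**
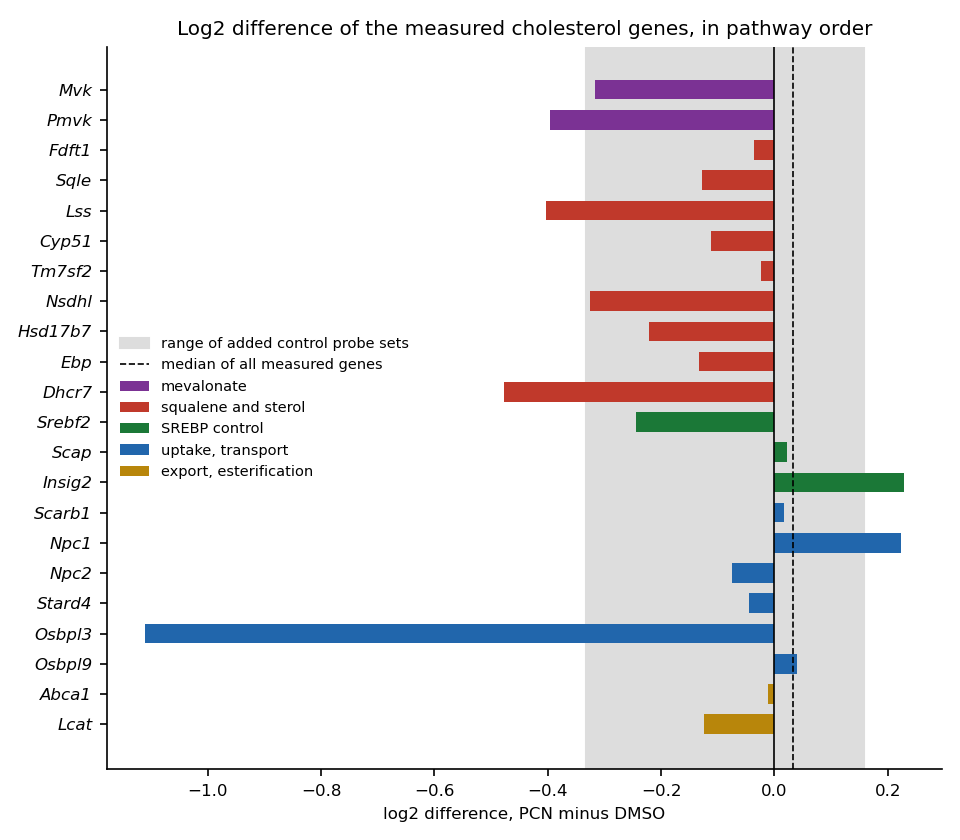
Log2 difference, PCN minus DMSO, of the 22 measured cholesterol genes in pathway order, coloured by role, with the range of the added control probe sets in grey and the median of all measured genes dashed. The 11 enzymes at the top all point to the left, 3 of them past the grey band, and Osbpl3 reaches -1.11.

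The genes of the SREBP switch did not share a direction. Srebf2 itself had an intensity of 72.1 with PCN and 85.4 with DMSO, a log2 difference of -0.24, and 9.97% of measured genes were as low. Insig2, which retains the SCAP complex in the endoplasmic reticulum, had 1202 with PCN and 1026 with DMSO, a difference of 0.23. It was the highest difference of the 22 genes, yet 12.4% of measured genes were as high or higher. Scap had 742 with PCN and 731 with DMSO, a difference of 0.02 that turned to -0.03 with quantile normalization. The gene of the liver X receptor LXRα, Nr1h3, stood near Insig2 at 0.21, with 85.1 in the PCN array and 73.4 in the DMSO array.

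Of the genes for uptake and movement of sterols inside the cell, Osbpl3 stood apart. Osbpl3 encodes ORP3, a member of the oxysterol-binding protein family, which exchanges lipids between membranes in contact with each other. It had an intensity of 294 with PCN and 635 with DMSO, so the PCN array was at 46.3% of the DMSO array, 2.16-fold lower. Its difference of -1.11 on the log2 scale ranked 9 of 6449 measured genes, counted from the lowest. Osbpl9, another member of the family, had 1605 with PCN and 1561 with DMSO, a log2 difference of 0.04. Of the other 10 family genes, 5 were measured, 4 lower and 1 higher, against 42.4% lower over all measured genes. Among them Osbpl1a, encoding a protein of late endosomes, differed by -0.54 (154 with PCN, 224 with DMSO), Osbp, the founding member, by -0.11, and Osbpl11 by 0.10. None of these 6 measured family genes reached the size seen for Osbpl3, and the remaining 5 were under the floor in both arrays.

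The lysosomal export genes Npc1 and Npc2, whose proteins hand cholesterol out of the late endosome together, differed in opposite directions. Npc1, the membrane protein, had 226 with PCN and 193 with DMSO, a log2 difference of 0.22, and 13.1% of measured genes were as high. Npc2, the soluble partner, had 2063 with PCN and 2173 with DMSO, a difference of -0.07, inside the control range. Stard4, a soluble carrier of cholesterol and a known SREBP2 target, had 273 with PCN and 281 with DMSO, a difference of -0.04. Scarb1, the receptor for high-density lipoprotein, had 239 with PCN and 236 with DMSO, a difference of 0.02 that turned negative, to -0.03 at the lowest, when the arrays were rescaled.

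Of the export genes, Abca1, the pump that loads cholesterol onto apolipoprotein A-I and a classical LXR target, was nearly equal, with 297 in the PCN array and 299 in the DMSO array. Lcat, the plasma enzyme that esterifies cholesterol on lipoproteins, had 547 with PCN and 596 with DMSO, a log2 difference of -0.12. The transporter subunits Abcg5 and Abcg8, which work as a pair to send sterols into bile, were under the floor in both arrays. Abcg5 had 9.89 with PCN and 16.5 with DMSO, and Abcg8 had 13.1 with PCN and 13.9 with DMSO. Signals this dim give no difference.

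**Figure D4:**
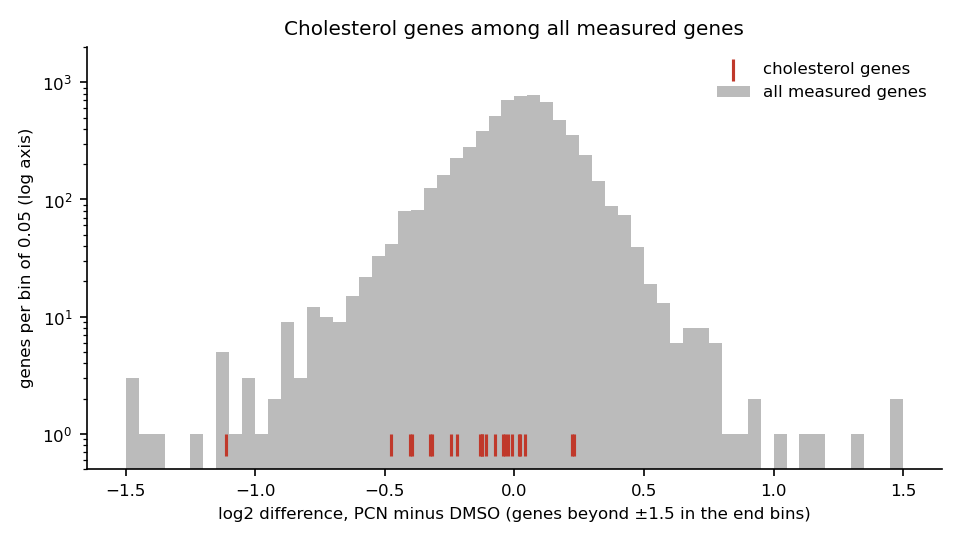
Number of genes per bin of 0.05 (log axis) against the log2 difference, PCN minus DMSO, for all 6449 measured genes in grey, with the 22 cholesterol genes as red ticks. Apart from Osbpl3 at -1.11 the ticks lie between -0.48 and 0.23, mostly left of 0, and those of Dhcr7, Lss and Pmvk lie below the 5th percentile of all genes at -0.35.

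Other sterol genes were listed from textbook roles, also with earlier results of these data known. They did not show the uniform direction of the 11 enzymes among the 31 genes, a contrast limited by how both were chosen. Of 6 measured genes listed under other steps in cholesterol synthesis, 4 were lower and 2 higher, with a median of -0.06. Over all measured genes 42.4% were lower. Acat1, the mitochondrial thiolase, differed by -0.26, Erg28, a scaffold for removal of sterol methyl groups, by -0.16, and Lbr, a nuclear envelope protein with sterol reductase activity, by 0.17. The thiolase of the cholesterol pathway is the cytosolic Acat2, which is not analysed here, so Acat1 is on this list without being such a step. Msmo1, the methylsterol oxidase that works with Nsdhl and Hsd17b7, was higher by 0.06 (3078 with PCN, 2947 with DMSO) and was picked out after its value was seen. None of the 6 passed 1.2-fold, where 8.95% of all measured genes were lower and 9.06% higher.

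The branches that use isoprenoids for other ends were evenly divided, since 5 of the 10 that were measured were lower and 5 higher (median 0.01). The extremes were Rce1 at -0.35 and Icmt at 0.26, enzymes that process prenylated proteins, and Pggt1b at -0.24, a subunit of a transferase that attaches the prenyl group. Genes listed under SREBP processing and sterol-dependent degradation were also split, 4 lower and 4 higher with a median of 0.01. Erlin1, encoding a protein of the endoplasmic reticulum that binds cholesterol, stood at -0.29 (226 with PCN, 276 with DMSO). The list also holds the LXRα gene Nr1h3, at 0.21, and Ubxn8, at 0.20, and neither is taken here as a step of SREBP processing. The signs of both medians turn when the arrays are rescaled.

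Genes of uptake, lysosome and ester turnover were lower in 5 of the 6 that were measured (median -0.14), against 42.4% of all measured genes. The largest were Cd36, a fatty acid and lipoprotein scavenger receptor, at -0.53 (45.1 with PCN, 64.9 with DMSO), Lipa, the lysosomal acid lipase, at -0.30 (377 with PCN, 464 with DMSO), and Nceh1, a cholesterol ester hydrolase, at -0.17. Sterol carriers of the START and GRAM families had 2 lower and 4 higher, with Stard5 at -0.42 (99.7 with PCN, 133 with DMSO), Stard3nl at 0.23, and Gramd1a at least 1.22-fold lower, its PCN value being under the floor.

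Other listed SREBP targets, mostly enzymes of fatty acid synthesis, were lower in 5 and higher in 6 of the 11 that were measured (median 0.03). Elovl6, a fatty acid elongase, stood at 0.38 (225 with PCN, 173 with DMSO), Aacs, acetoacetyl-CoA synthetase, at 0.34 and Acss2, acetyl-CoA synthetase, at -0.28. LXR targets were small in difference, 4 of 5 lower with a median of -0.04, against 42.4% lower over all measured genes. The largest were Smpdl3a at -0.12, Lpcat3 at 0.09 and Apoe at -0.07, with all 5 inside the control range. Srebf1 and Scd1 belong to more than 1 of these lists.

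**Figure D5:**
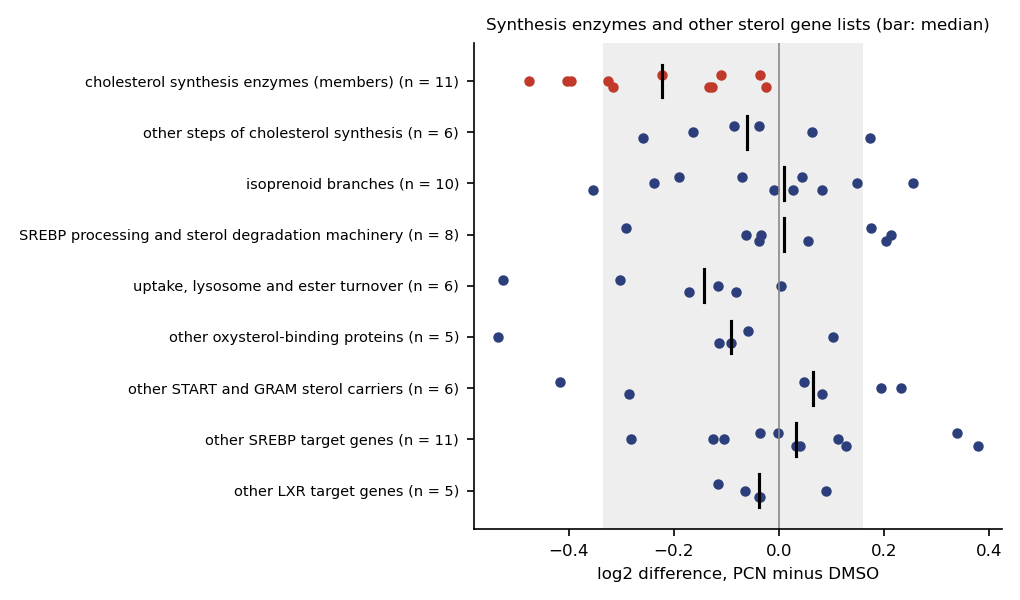
Log2 difference, PCN minus DMSO, of the 11 measured synthesis enzymes among the 31 genes (red, top row) and of the measured genes of 8 other sterol lists (blue), with the median of each as a black bar and the range of the added control probe sets in grey. The red points all lie left of 0, with a median of -0.22, while most other rows straddle it.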

How the data were processed

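Each group, PCN and DMSO, had 1 single-colour Affymetrix array (2 in all) hybridised with biotin-labelled cRNA of 5 µg pooled RNA, per the labels' protocols. The deposited intensities were made by the authors with GCRMA, for which the submitters' processing notes name version 2.2.0. GCRMA models background from probe sequence, normalizes between arrays and summarises probe sets. That the scale is linear was read from the values, 1.13 to 28482. The genome build and the probe set definition: not given in the sources used here.

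Of 16395 probe sets, 64 were controls, 687 were unnamed here and 15644 had 1 gene symbol, each gene having 1 probe set. Log2 differences, PCN minus DMSO, came from numpy 2.4.6 and pandas 2.3.3 under Python 3.11.15. Values under 5 (log2) were raised to 5, so such differences are bounds. With 1 array per group no test, SE or p-value was possible, and precision is limited by having so few arrays. The code was tested on simulated data with planted changes larger than that of Osbpl3, in genes well above the floor. That test says nothing about small differences or dim genes. The genes and lists were chosen with earlier results of these data known. All 31 genes are named, and of each other list the 3 measured genes with the largest difference; others are marked. Alternatives were other floors, none, quantile normalization, median centring, loess removal (statsmodels 0.14.6, fraction 0.3) and other fold thresholds. Protein sequences were not used here.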

Additional observations from a re-analysis of the deposited data

How the results depend on the processing

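Every alternative setting was run, and the count of the synthesis enzymes was added after seeing the data. With quantile normalization, median centring or loess removal, 3 genes were higher in place of 5, since Scap and Scarb1 turned negative, and the 11 synthesis enzymes among the 31 genes all stayed lower. With a floor of 4, or none, 1 synthesis enzyme, Mvd, was higher by 0.03 and the other 11 stayed lower, and with a floor of 6 the dim Mvk dropped out and the remaining 10 were lower. Without a floor 2 genes lay past 1.5-fold, the added one being the dim Abcg5, and at a threshold of 1.2-fold 6 genes were counted in place of 1. The median of the genes measured under each setting ranged from -0.16 to -0.09 and Osbpl3 from -1.15 to -1.11. Those genes numbered 24 with a floor of 4, 21 with a floor of 6, 25 without a floor and 22 otherwise. Of 153 recomputed values of single genes, 6 changed sign, and of 98 medians, 11 did, in every case from values near 0; none moved by more than the SD of the control probe sets. Signal near background limits Mvd, Abcg5 and Abcg8. No replicate could be left out. No paired analysis was possible because there was only 1 array for each treatment.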
